A study of Saccharomyces cerevisiae with 14 samples.

Results

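The genes described here are the enzymes of amino acid synthesis in the budding yeast Saccharomyces cerevisiae and GCN4, the gene of the transcription factor that activates many of them. They were taken from the measured table by a list of systematic names, which covers ARG, HIS, LEU, ILV, BAT, LYS, TRP, ARO, HOM, THR, SER, ASN, GDH, GLN1, GLT1 and PRO genes together with GCN4 but not every gene of these pathways. The list holds 54 genes of the 6664 measured, and all 54 had a value in every library and passed the filter on low values. Messenger RNA was sequenced in 14 libraries to ask how loss of FPT1, the gene of a chromatin protein found at tRNA genes, changes mRNA levels in glucose and in ethanol. The deletion strains carry MATa his3Δ1 leu2Δ0 ura3Δ0 met15Δ0 with FPT1 knocked out by the KanMX cassette (fpt1::KanMX), under the strain name NKI5633 for replicates 1 to 3 and NKI5620 for replicate 4. Wild type is BY4741, a standard MATa laboratory haploid with the same 4 marker alleles and an intact FPT1. Each genotype was sampled in mid-log growth in YEPD, a rich glucose medium, and 2 h after a switch to ethanol at 30 °C, with 4 deletion and 3 wild-type libraries per medium. All groups therefore lack LEU2 and MET17 and carry a partial deletion of HIS3, so every library comes from cells that cannot complete leucine, histidine or methionine synthesis. The labels do not say what else the ethanol medium held or how many clones each strain stands for.

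Yeast can make every amino acid from central metabolites and ammonium. When amino acids run short, uncharged tRNAs activate the kinase Gcn2, translation of the GCN4 mRNA rises through short reading frames in its leader, and the Gcn4 protein binds promoters with the core sequence TGACTC to raise enzyme genes of many pathways at once. A GCN4 mRNA level therefore need not follow the amount of Gcn4 protein. Branched-chain synthesis has its own activator, Leu3, which binds CCGG repeated after a gap of 2 bases and senses an intermediate of the leucine pathway.

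The Gcn4 core is a feature these genes share that the choice by name did not use. In the window from 250 bases before to 50 bases after the translation start, TGACTC stood on either strand in 31 of the 54 promoters (57.4%), against 479 of 6002 coding genes (7.98%). Its longer form TGACTCA, which contains the core, stood in 22 (40.7%), against 164 of all promoters (2.73%). The Leu3 sequence (CCGG, any 2 bases, CCGG, which reads the same on both strands), searched for after the ethanol values were seen, stood in the promoters of LEU1 and BAT1 alone among the 54 (3.7%), against 8 of all promoters (0.133%). The stretches below show the core in 2 genes that fell in ethanol (HIS4 and HIS1) and in 1 that rose (PRO3), and the Leu3 sequence in the 2 promoters that hold it. Capitals mark the match, letters run along the coding strand of each gene, and GAGTCA is TGACTC read on the other strand. They were cut from the RefSeq genome of strain S288C, assembly R64, at chrIII:68507-68583 (minus strand), chrV:265943-265988 (minus), chrV:200862-200907 (plus), chrVII:478840-478889 (minus) and chrVIII:517341-517414 (plus).
HIS4: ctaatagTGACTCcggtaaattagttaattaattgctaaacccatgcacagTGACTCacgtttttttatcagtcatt
HIS1: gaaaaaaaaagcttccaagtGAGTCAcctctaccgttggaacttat
PRO3: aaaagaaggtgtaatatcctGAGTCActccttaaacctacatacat
LEU1: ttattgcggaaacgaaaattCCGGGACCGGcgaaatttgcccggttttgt
BAT1: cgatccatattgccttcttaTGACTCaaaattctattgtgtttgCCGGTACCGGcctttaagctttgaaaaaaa

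A match is a description of the letters and was not tested as a binding site. In wild-type cells the median log2 change in ethanol was -0.57 over the 31 genes with TGACTC and -0.60 over the 23 without it. For TGACTCA it was -0.60 over the 22 genes with it and -0.58 over the 32 without it. Of the 22, limma called 16 lower and 2 higher, and of the 32 it called 19 lower and 8 higher. Of all genes it called 24.8% lower and 50.5% higher. Whether direction differs with either form was not tested.

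The deposited unit is FPKM, the reads on a gene scaled by its length and by the mapped reads of the library, which allows levels to be set side by side between genes within a library. Total FPKM per library ran from 1649740 to 2027950, and 326 to 530 genes were listed at 0. Depth was estimated from the steps of the lowest values at 6370000 to 12900000 reads per library, so that the least covered of the 54 genes rested on about 88.7 to 208 reads and the median one on 1620 to 4010. These are rough estimates from 14 to 28 low genes per library, with a fixed 200 bases taken off each gene length. The step was sought only within a preset range, which bounded the estimated depth in advance. Of the low values 53.8% to 87.5% lay within 0.15 of a whole read, where some would lie by chance. FPT1 reached at most 0.412 FPKM in the 8 deletion libraries and lay between 51.9 and 158 FPKM in the 6 wild-type libraries. The deleted markers LEU2, URA3 and MET17 had no FPKM above 0, HIS3 had 51.0 to 104 FPKM, and the alpha-cell genes MF(ALPHA)1, MF(ALPHA)2 and STE3 did not exceed 12.4 FPKM. Replicates are described as biological by the submitters. Separate cultures are named nowhere in the labels, so each p-value refers to the spread among these libraries, part of which may be technical.

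GCN4 (YEL009C) had the highest level of the 54 genes in all 4 groups. It lies on chromosome V, 138918 to 139763, minus strand. In deletion cells it read 2209, 2476, 2761 and 2532 FPKM in ethanol, against 2103, 2024, 2058 and 1719 FPKM in glucose. In wild-type cells it read 2332, 2499.7 and 2388 FPKM in ethanol, against 1996, 2211 and 2146 FPKM in glucose. In both genotypes every ethanol library lay above every glucose library, by a narrow margin. On the log2(FPKM + 1) scale GCN4 rose by 0.34 ± 0.08 in deletion cells (SE; limma adjusted p = 0.0022). In wild-type cells the change was 0.18 ± 0.10 and did not pass (limma adjusted p = 0.096), and it was -0.14 when libraries were scaled to equal medians. The median change over all genes was 0.19 in deletion cells and 0.31 in wild-type cells, so the GCN4 change lay above it in deletion cells and below it in wild type. The deletion call was lost under median scaling (0.12), quantile normalization (0.18) and TPM (0.17).

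ILV5 (YLR355C), the acetohydroxyacid reductoisomerase of branched-chain synthesis, stood next to it except in wild-type ethanol cells, where it ranked 4. It had 1093 ± 139.8 FPKM in deletion ethanol cells (SD, n = 4), against 1944 ± 66.6 FPKM in deletion glucose cells (SD, n = 4). In wild type it averaged 876 ± 129 FPKM in ethanol and 1933 ± 75.2 FPKM in glucose (SD, n = 3 each). The lowest level in glucose was that of GDH3. In ethanol it was that of ARG3, the ornithine carbamoyltransferase, with 15.7, 29.0, 16.4 and 20.6 FPKM in deletion libraries and 12.9, 11.5 and 20.5 FPKM in wild-type libraries. The median level over the 54 genes was 168 FPKM in deletion and 160.5 FPKM in wild-type ethanol cells, and 226 FPKM in deletion and 217 FPKM in wild-type glucose cells.

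Most of these genes fell in ethanol. The 54 genes together held 0.754% to 0.806% of the total FPKM in deletion ethanol libraries, against 1.03% to 1.18% in deletion glucose libraries. In wild type they held 0.750% to 0.783% in ethanol, against 1.09% to 1.18% in glucose. The ranges did not overlap in either genotype. Since FPKM is a share of each library, a fall can also come from a rise of other mRNAs. Such a rise, less mRNA per cell and fewer cells making it cannot be told apart.

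In deletion cells limma called 36 of 54 genes lower in ethanol (66.7%) where 27.7% of all 6267 tested genes were called lower, and 11 higher (20.4%) where 46.9% of all genes were. In wild-type cells it called 35 lower (64.8%), against 24.8% of all genes, and 10 higher (18.5%), against 50.5% of all genes. Changes of at least 1 on the log2 scale were found for 11 lower and 3 higher members in deletion cells, against 7.88% and 17.4% of all genes. In wild-type cells 17 were lower and 3 higher by that measure, against 10.1% and 23.4% of all genes. The median change over the 54 genes was -0.56 in deletion cells and -0.58 in wild-type cells, or -0.75 and -0.89 relative to the median of all genes. The call split over all genes depended on the scaling. With libraries scaled to equal medians, 36.6% of all genes were called higher and 38.6% lower in deletion cells, and 37.4% and 37.7% in wild-type cells, while of the members 8 were called higher and 39 lower in deletion cells and 6 and 39 in wild-type cells. Both genotypes shared 34 lower and 9 higher calls. Calls made in deletion cells alone were GCN4 and LYS12 (higher) and ARO1 and SER3 (lower), and calls made in wild type alone were PRO1 (lower) and SER1 (higher). None of these 6 genes had a difference between the 2 responses that passed the test, and the lower calls were made in both genotypes under median scaling, where ARO1 (-0.41) and SER3 (-0.32) passed in wild type and PRO1 (-0.34) in deletion cells. ARG3, ARG4, ARG56, LYS21 and HIS5 were called in neither genotype without rescaling, but LYS21 and HIS5 were called lower in both under median scaling and quantile normalization, and ARG4 in deletion cells and ARG3 in wild type under quantile normalization. ARG56 alone of the 5 was called under no scaling.

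**Figure D1:**
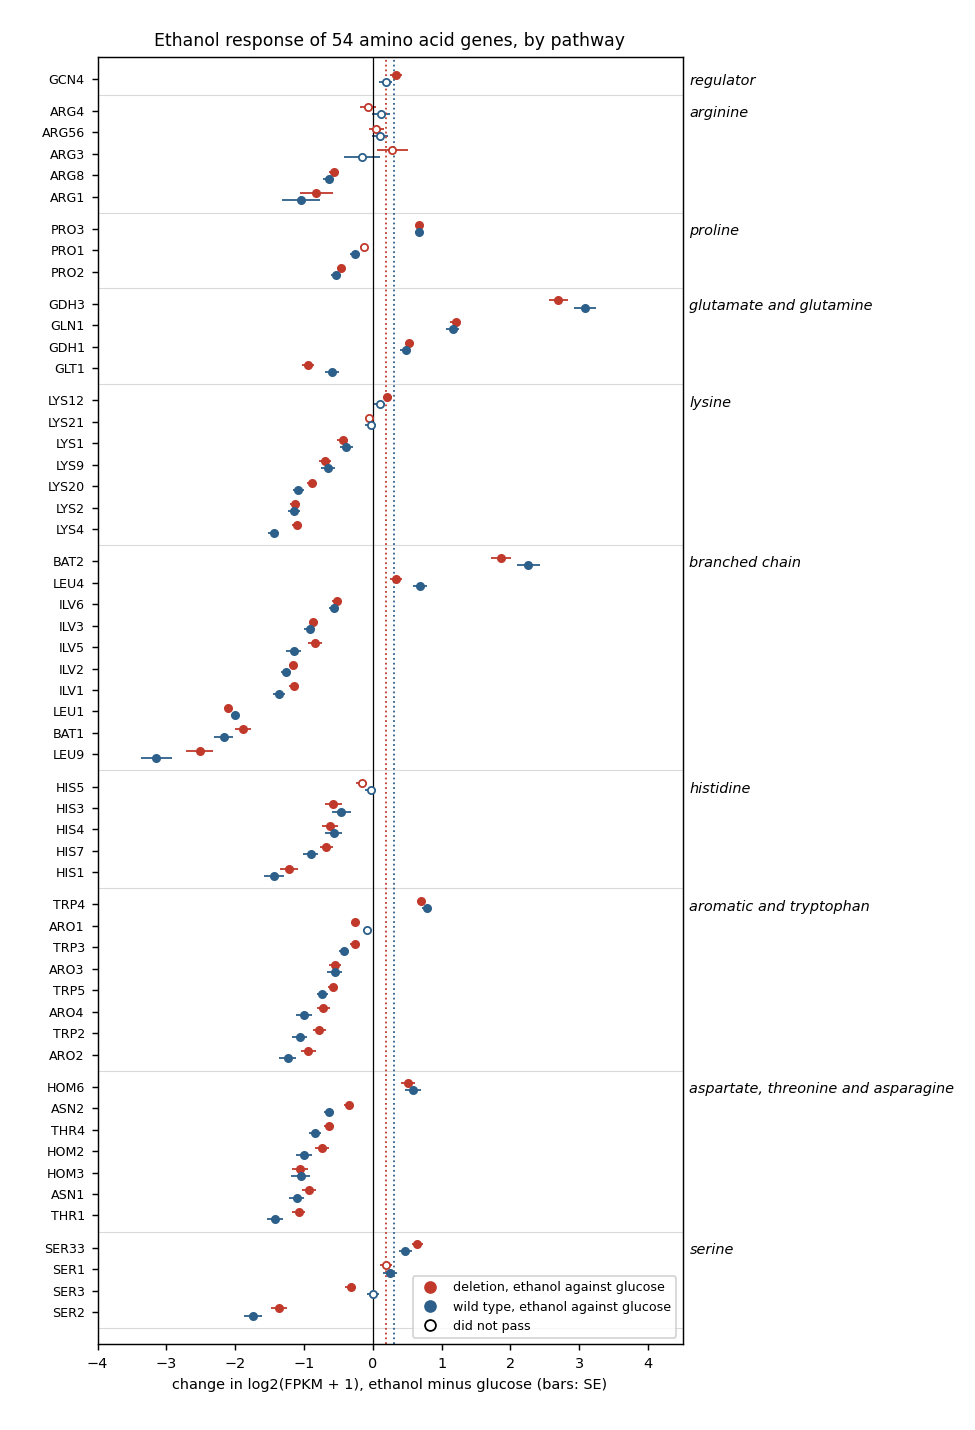
Log2 change in ethanol against glucose of each of the 54 genes, grouped by pathway, in deletion cells (red) and wild-type cells (blue), with SE bars; open circles did not pass at adjusted p = 0.05 and dotted lines mark the median of all genes (0.19 and 0.31). Most points lie left of 0, and BAT2, GDH3 and GLN1 stand alone beyond 1 on the right.

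The branched-chain pathway held the largest falls. Of its 10 genes 8 fell and 2 rose in both genotypes, with a median change of -1.0 in deletion cells and -1.21 in wild-type cells. LEU9 (YOR108W), a minor isopropylmalate synthase that starts the leucine branch (chromosome XV, 523027 to 524841, plus strand), had 34.6, 57.7, 32.5 and 59.8 FPKM in deletion ethanol libraries, against 266, 271, 256 and 242 FPKM in deletion glucose libraries. In wild type LEU9 had 23.8, 23.0 and 39.8 FPKM in ethanol, against 253, 256 and 256 FPKM in glucose. The media were far apart, and within ethanol deletion replicates 2 and 4 and wild-type replicate 3 were the high libraries of their groups. The log2 change was -2.52 ± 0.20 in deletion cells and -3.14 ± 0.23 in wild-type cells (SE; limma adjusted p = 5.8e-08 and 2.2e-08).

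LEU1 (YGL009C), the isopropylmalate isomerase that follows it (chromosome VII, 476313 to 478652, minus strand), had 200.5, 214, 199.5 and 208 FPKM in deletion ethanol libraries, against 914, 875, 879 and 887 FPKM in deletion glucose libraries. In wild type it had 224, 223 and 204 FPKM in ethanol, against 850.3, 849 and 909.5 FPKM in glucose. Its ethanol values lay closer together than those of LEU9. The log2 change of LEU1 was -2.11 ± 0.05 in deletion cells and -2.0 ± 0.06 in wild-type cells (limma adjusted p = 1.1e-12 and 6.6e-12), the lowest p of any of the 54 genes in either genotype. LEU1 is one of the promoters with the Leu3 sequence. BAT1 (YHR208W), the mitochondrial branched-chain aminotransferase and the other gene with that sequence (chromosome VIII, 517532 to 518713, plus strand), had 204, 287, 222 and 308 FPKM in deletion ethanol libraries, against 956, 929.8, 890.2 and 947 FPKM in deletion glucose libraries. In wild type BAT1 had 196, 182 and 239 FPKM in ethanol, against 885, 915 and 956 FPKM in glucose. Its log2 change was -1.88 ± 0.12 in deletion cells and -2.16 ± 0.14 in wild-type cells (limma adjusted p = 6.7e-09 and 5.9e-09). LEU3 itself, which is not among the 54, fell, with log2 changes of -0.47 in deletion and -0.58 in wild-type cells. LEU9, which fell further than LEU1 and BAT1, and the ILV genes lack the Leu3 sequence in the window. A link between LEU3 and these falls was not tested.

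All 5 ILV genes, most of which serve isoleucine and valine alike, fell as well. ILV1 (YER086W), the threonine deaminase that opens isoleucine synthesis, had 96.1, 114, 106 and 125 FPKM in deletion ethanol libraries, against 252, 246, 228 and 247 FPKM in deletion glucose libraries. In wild type ILV1 had 103, 91.0 and 97.3 FPKM in ethanol, against 246, 247 and 264 FPKM in glucose. The media did not overlap, and the log2 change was -1.14 ± 0.07 in deletion cells and -1.37 ± 0.09 in wild-type cells (limma adjusted p = 8.2e-09 and 4.9e-09). ILV2, the catalytic subunit of acetolactate synthase, changed by -1.16 in deletion and -1.27 in wild-type cells, while its regulatory subunit ILV6 changed by -0.53 and -0.56. ILV5 changed by -0.84 and -1.15, and the dihydroxyacid dehydratase ILV3 by -0.86 and -0.92.

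Against this, BAT2 (YJR148W), the cytosolic aminotransferase that also acts in breakdown of branched-chain amino acids, rose. It had 547, 438, 554 and 469 FPKM in deletion ethanol libraries, against 132, 141, 130.1 and 142 FPKM in deletion glucose libraries. In wild type BAT2 had 891, 764 and 483 FPKM in ethanol, against 146, 143 and 141 FPKM in glucose. All ethanol libraries lay above all glucose libraries, and wild-type ethanol replicate 3 lay among the deletion libraries. The log2 change was 1.87 ± 0.14 in deletion cells and 2.26 ± 0.17 in wild-type cells (limma adjusted p = 4.8e-08 and 2.5e-08). LEU4 (YNL104C), the main isopropylmalate synthase, had 278, 273, 294 and 272 FPKM in deletion ethanol libraries, against 243, 209, 212 and 219 FPKM in deletion glucose libraries. In wild type LEU4 had 391, 357 and 282 FPKM in ethanol, against 200.3, 208 and 227 FPKM in glucose. LEU4 rose by 0.34 ± 0.09 in deletion cells and by 0.68 ± 0.10 in wild-type cells (limma adjusted p = 0.0031 and 2.8e-05). The deletion call was lost under median scaling (0.13), quantile normalization (-0.02) and TPM (0.17).

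Of the 4 genes that assimilate ammonium into glutamate and glutamine, 3 rose and 1 fell in both genotypes. GDH3 (YAL062W), a minor NADP-dependent glutamate dehydrogenase known as the isoform of non-fermentable growth (chromosome I, 31567 to 32940, plus strand), had 106, 96.1, 108 and 74.8 FPKM in deletion ethanol libraries, against 11.8, 12.6, 16.9 and 14.9 FPKM in deletion glucose libraries. In wild type GDH3 had 109.7, 127 and 90.8 FPKM in ethanol, against 12.6, 12.3 and 10.8 FPKM in glucose. GDH3 ranked 40 of the 54 genes in deletion and 34 in wild-type ethanol cells, against 54 in glucose in both, with a log2 change of 2.69 ± 0.14 in deletion cells and 3.08 ± 0.16 in wild-type cells (limma adjusted p = 9.8e-10 and 9.7e-10). GLN1 (YPR035W), the glutamine synthetase, had 967, 1114, 1110.1 and 943 FPKM in deletion ethanol libraries, against 488, 455, 449 and 401 FPKM in deletion glucose libraries. In wild type GLN1 had 1059.5, 1062 and 894 FPKM in ethanol, against 479, 429 and 436 FPKM in glucose. It rose by 1.20 ± 0.08 and 1.16 ± 0.10 in deletion and wild-type cells (limma adjusted p = 1.7e-08 and 7.9e-08).

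GDH1 (YOR375C), the major NADP-dependent glutamate dehydrogenase, had 613, 616, 585 and 568 FPKM in deletion ethanol libraries, against 432, 398, 390.3 and 429 FPKM in deletion glucose libraries. In wild type it had 493, 516 and 579.9 FPKM in ethanol, against 361, 371 and 408 FPKM in glucose. The log2 change of 0.53 ± 0.06 in deletion and 0.48 ± 0.07 in wild-type cells compares with 0.19 and 0.31 for the median gene. Under quantile normalization it was 0.04 and -0.05. The wild-type call was also lost under median scaling (0.15, limma adjusted p = 0.11). GLT1 (YDL171C), the glutamate synthase, which makes glutamate from glutamine, went the other way. It averaged 70.4 ± 6.55 FPKM in ethanol and 136 ± 3.4 FPKM in glucose in deletion cells (SD, n = 4 each), and 74.8 ± 10.2 FPKM in ethanol and 113 ± 8.6 FPKM in glucose in wild type (SD, n = 3 each). The log2 change was -0.94 ± 0.09 and -0.60 ± 0.10 (limma adjusted p = 2.3e-07 and 7.9e-05).

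**Figure D2:**
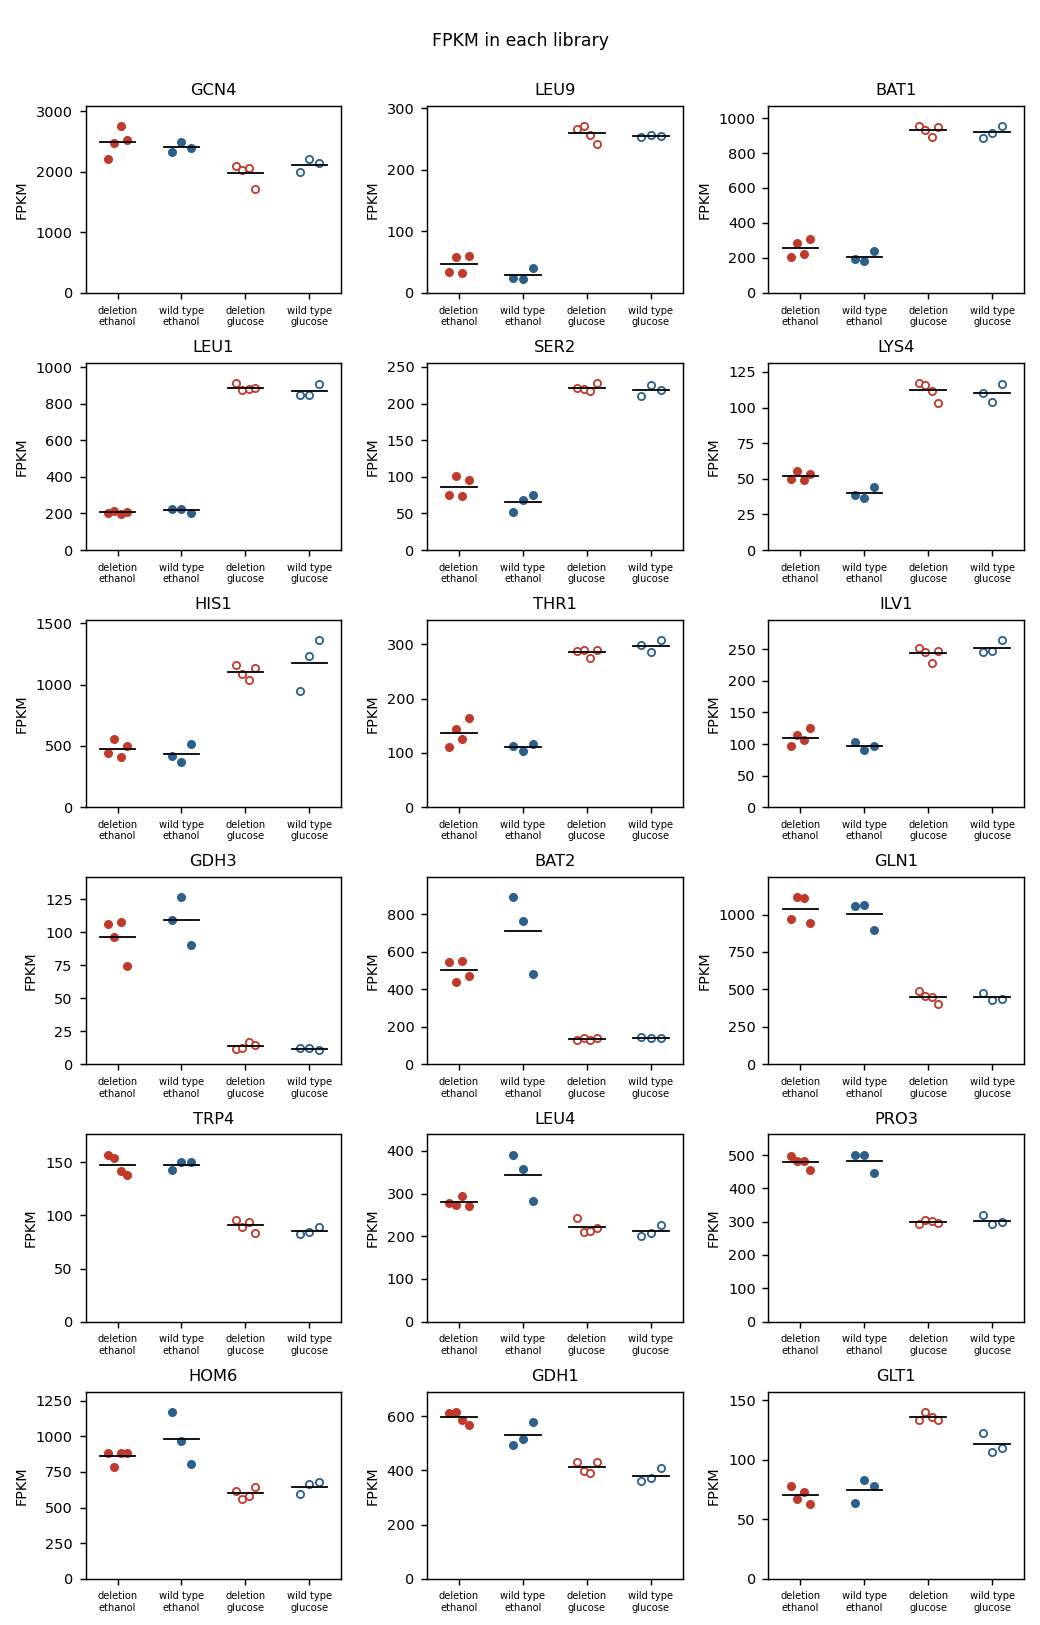
FPKM of 18 genes in each library (vertical axis, from 0) in deletion ethanol, wild-type ethanol, deletion glucose and wild-type glucose cells; each point is 1 library (filled in ethanol, open in glucose) and each line a group mean. LEU9, BAT1, LEU1 and SER2 drop to less than their glucose range in every ethanol library, whereas GDH3, BAT2 and GLN1 lie above it.

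In the lysine pathway 5 of 7 genes fell in both genotypes. LYS4 (YDR234W), the homoaconitase (chromosome IV, 931129 to 933210, plus strand), had 49.7, 55.2, 48.9 and 53.3 FPKM in deletion ethanol libraries, against 117, 116, 112 and 103 FPKM in deletion glucose libraries. In wild type LYS4 had 38.6, 36.9 and 44.5 FPKM in ethanol, against 110.3, 104 and 117 FPKM in glucose. Its log2 change was -1.10 ± 0.07 in deletion cells and -1.44 ± 0.08 in wild-type cells (limma adjusted p = 7.3e-09 and 1.9e-09). LYS2, the aminoadipate reductase, changed by -1.13 and -1.14, LYS9, which forms saccharopine, by -0.69 and -0.66, and LYS1, which releases lysine from saccharopine, by -0.43 and -0.38. LYS12, the homoisocitrate dehydrogenase, had a change of 0.21 in deletion cells that passed and one of 0.10 in wild-type cells that did not, and both fell below 0 under median scaling, to -0.0020 and -0.22. Under quantile normalization the wild-type value was -0.33 and passed as lower (limma adjusted p = 0.0043).

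Of the 5 histidine genes 4 fell, and the aminotransferase HIS5 passed as lower only under some alternatives. HIS1 (YER055C), which commits ATP and phosphoribosyl pyrophosphate to histidine (chromosome V), had 441, 558, 413 and 497 FPKM in deletion ethanol libraries, against 1159, 1088, 1038 and 1134 FPKM in deletion glucose libraries. In wild type HIS1 had 417, 372 and 513 FPKM in ethanol, against 945, 1235 and 1364 FPKM in glucose. The groups were apart by medium although wild-type glucose libraries were widely spread, and the log2 change was -1.22 ± 0.13 in deletion and -1.44 ± 0.15 in wild-type cells (limma adjusted p = 8.7e-07 and 5.9e-07). HIS4, a multifunctional enzyme whose promoter holds the core 2 times in the window, changed by -0.62 and -0.57, HIS7, the imidazole glycerol phosphate synthase, by -0.67 and -0.90, and HIS3, partly deleted in all strains, by -0.57 and -0.46. HIS5 had changes of -0.16 in deletion and -0.03 in wild-type cells that did not pass. It passed as lower in deletion cells under median scaling (-0.38), quantile normalization (-0.51), TPM (-0.33) and on leaving out deletion replicate 2 in ethanol (-0.21) or in glucose (-0.20), and in wild type under median scaling (-0.35) and quantile normalization (-0.45).

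Among the 7 genes from aspartate to threonine and asparagine, 6 fell and 1 rose in both genotypes. THR1 (YHR025W), the homoserine kinase, had 110.3, 145, 125 and 165 FPKM in deletion ethanol libraries, against 288, 289, 275 and 289 FPKM in deletion glucose libraries. In wild type THR1 had 113, 103 and 116 FPKM in ethanol, against 298, 286 and 307 FPKM in glucose. The log2 change was -1.08 ± 0.10 in deletion cells and -1.42 ± 0.11 in wild-type cells (limma adjusted p = 1.9e-07 and 4.3e-08). HOM3, the aspartate kinase at the head of the pathway, changed by -1.06 and -1.05, the aspartate semialdehyde dehydrogenase HOM2 by -0.74 and -0.99, and the threonine synthase THR4 by -0.63 and -0.84.

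HOM6 (YJR139C), the homoserine dehydrogenase between HOM2 and THR1, moved against its neighbours. It had 879.7, 785, 885 and 885 FPKM in deletion ethanol libraries, against 615, 562, 585 and 645 FPKM in deletion glucose libraries. In wild type HOM6 had 1173, 967 and 804 FPKM in ethanol, against 595, 669 and 678 FPKM in glucose. Every ethanol library exceeded every glucose library of its genotype, with log2 changes of 0.51 ± 0.10 and 0.59 ± 0.11 (limma adjusted p = 0.0003 for both). Under quantile normalization these were 0.0028 and 0.05 and did not pass. The wild-type call was also lost under median scaling (0.26, limma adjusted p = 0.088).

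For chorismate and tryptophan, 7 of 8 genes fell and 1 rose in deletion cells, and 6 fell and 1 rose in wild-type cells. TRP4 (YDR354W), the anthranilate phosphoribosyltransferase, had 157, 155, 142 and 138 FPKM in deletion ethanol libraries, against 95.5, 89.4, 94.3 and 83.8 FPKM in deletion glucose libraries. In wild type TRP4 had 143, 150.4 and 149.9 FPKM in ethanol, against 82.4, 84.8 and 89.3 FPKM in glucose. TRP4 rose by 0.70 ± 0.06 and 0.78 ± 0.07 (limma adjusted p = 1.1e-07 and 1.2e-07), while the step before it, the anthranilate synthase TRP2, changed by -0.78 and -1.06, and later steps by -0.26 and -0.42 (TRP3, which is bifunctional) and -0.57 and -0.73 (TRP5, the tryptophan synthase). Of the shared steps, the chorismate synthase ARO2 changed by -0.94 and -1.23, and ARO1, a single chain with several activities, by -0.25 in deletion cells and -0.09 in wild-type cells, where it did not pass unless rescaled (-0.41 under median scaling, -0.42 under quantile normalization and -0.23 under TPM).

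Proline genes split by step. PRO3 (YER023W), the pyrroline-5-carboxylate reductase that finishes the pathway, had 497, 481, 483 and 454 FPKM in deletion ethanol libraries, against 294, 304, 301 and 297 FPKM in deletion glucose libraries. In wild type PRO3 had 501, 501 and 447 FPKM in ethanol, against 319, 292 and 298 FPKM in glucose. It rose by 0.68 ± 0.05 and 0.67 ± 0.06 (limma adjusted p = 4.9e-08 and 1.8e-07). PRO2, the step before, changed by -0.47 in deletion and -0.54 in wild-type cells, and the glutamyl kinase PRO1 by -0.12, which did not pass, and -0.26. In deletion cells PRO1 passed as lower under median scaling (-0.34), quantile normalization (-0.44), TPM (-0.29) and without ethanol replicate 2 (-0.17).

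Of the 5 arginine genes, 2 fell and 3 did not pass in both genotypes. ARG1, the argininosuccinate synthetase, had 82.4, 145, 67.0 and 111 FPKM in deletion ethanol libraries, against 233, 145, 148 and 177 FPKM in deletion glucose libraries, with 1 ethanol library within the glucose range. In wild type ARG1 had 66.2, 57.9 and 96.8 FPKM in ethanol, against 118, 155 and 184 FPKM in glucose. Its log2 change was -0.82 ± 0.24 in deletion cells and -1.05 ± 0.28 in wild-type cells (limma adjusted p = 0.0067 and 0.0033), with larger errors than any other member called. ARG8, the acetylornithine aminotransferase, changed by -0.56 and -0.64. ARG3, ARG4 (the argininosuccinate lyase) and ARG56 (which makes the enzymes of the early steps) had changes of -0.16 to 0.29 over both genotypes that did not pass. Under quantile normalization ARG3 in wild type (-0.70, limma adjusted p = 0.045) and ARG4 in deletion cells (-0.39, limma adjusted p = 0.014) passed as lower, while ARG3 in deletion cells, ARG4 in wild type and ARG56 in both turned negative without passing.

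In the serine pathway SER2 (YGR208W), the phosphoserine phosphatase (chromosome VII), had 74.6, 101, 73.9 and 95.8 FPKM in deletion ethanol libraries, against 221, 220.0, 217 and 228 FPKM in deletion glucose libraries. In wild type SER2 had 52.4, 68.1 and 74.9 FPKM in ethanol, against 211, 225 and 219 FPKM in glucose. Its log2 change was -1.36 ± 0.11 in deletion cells and -1.74 ± 0.13 in wild-type cells (limma adjusted p = 9.7e-08 and 2.9e-08). SER1, the aminotransferase before it, had 401 ± 21.6 FPKM in ethanol and 352 ± 29.6 FPKM in glucose in deletion cells (SD, n = 4 each), and 459 ± 70.3 FPKM in ethanol and 383 ± 25.7 FPKM in glucose in wild-type cells (SD, n = 3 each). The SER1 changes of 0.19 and 0.25 were not stable. The wild-type call (limma adjusted p = 0.043) was lost on leaving out any 1 of 5 of its 6 libraries. The sign turned to -0.02 and -0.07 under median scaling. In deletion cells SER1 passed as higher with only the groups compared (0.19, limma adjusted p = 0.036). It also passed there without glucose replicate 1 (0.24, limma adjusted p = 0.043).

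In 7 cases a pair of genes encodes the same reaction, and the balance within each pair changed with the medium. The ratio was taken as the difference of log2(FPKM + 1) between the genes in each library, and ethanol was compared with glucose within each genotype by an exact two-sided permutation test over 1400 regroupings, in which the smallest possible p is 0.00143, with Benjamini-Hochberg adjustment over the 7 pairs. The pairs were chosen with the direction of several of their genes already known, and ratios of called genes are not independent of the single-gene changes above. BAT1 over BAT2 lay between -1.42 and -0.61 in deletion ethanol libraries, against 2.71 to 2.85 in deletion glucose libraries. In wild type it lay between -2.18 and -1.01 in ethanol, against 2.59 to 2.75 in glucose. The cytosolic gene was thus the more abundant one in ethanol and the mitochondrial gene in glucose, a mean shift of -4.09 over both genotypes (exact permutation, adjusted p = 0.00167).

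LEU4 over LEU9 shifted by 3.34 (exact permutation, adjusted p = 0.00167). The ratio lay between 2.17 and 3.14 in deletion ethanol libraries, against -0.38 to -0.13 in deletion glucose libraries. In wild type it lay between 2.79 and 3.98 in ethanol, against -0.33 to -0.17 in glucose, where LEU4 was slightly the lower gene. GDH1 over GDH3 shifted by -2.39 (exact permutation, adjusted p = 0.00167), and GDH1 stayed the more abundant in every library, with ratios of 2.42 to 2.91 in deletion ethanol libraries, against 4.45 to 5.08 in deletion glucose libraries. In wild type these were 2.02 to 2.66 in ethanol, against 4.74 to 5.12 in glucose. The aligned coding regions of these 3 pairs shared no stretch of 65 bases, the read length, and were 68.69%, 76.91% and 76.2% identical, so that no exact full-length read matches both genes of a pair.

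LYS20 and LYS21, the homocitrate synthases, cannot be read as firmly. Their coding regions were 88.21% identical and shared 408 windows of 65 bases, and 66.64% and 67.59% of their windows were unique in the genome, so reads can be split between them by the authors' unstated counting. LYS20 had 95.0, 111, 113 and 109 FPKM in deletion ethanol libraries, against 212, 197, 182 and 203 FPKM in deletion glucose libraries. In wild type LYS20 had 102, 95.1 and 107 FPKM in ethanol, against 210.2, 208 and 227 FPKM in glucose. LYS21 read 91.6, 107, 96.5 and 97.7 FPKM in deletion ethanol libraries, against 103, 98.7, 96.2 and 110.5 FPKM in deletion glucose libraries, and in wild type 104, 98.6 and 97.3 FPKM in ethanol, against 101, 95.4 and 111 FPKM in glucose. LYS20 fell to the level of LYS21 in ethanol, with log2 changes of -0.89 ± 0.07 and -1.08 ± 0.08, and LYS21 had changes of -0.05 ± 0.06 and -0.03 ± 0.07 that did not pass. Under rescaling LYS21 was called lower too, at -0.27 and -0.35 under median scaling, -0.31 and -0.40 under quantile normalization and -0.22 and -0.18 under TPM. The ratio shifted by -0.94 (exact permutation, adjusted p = 0.00167).

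For SER3 and SER33, the phosphoglycerate dehydrogenases, SER33 was the higher gene in all ethanol libraries but 1 from wild type, and SER3 in every glucose library. SER3 had 222, 204, 214 and 168 FPKM in deletion ethanol libraries, against 241, 272, 256 and 236 FPKM in deletion glucose libraries, and in wild type 217, 218 and 208 FPKM in ethanol, against 219.7, 205 and 219 FPKM in glucose. SER33 had 239, 297, 233 and 297 FPKM in deletion ethanol libraries, against 169, 168, 165 and 171 FPKM in deletion glucose libraries, and in wild type 242, 209.9 and 232 FPKM in ethanol, against 167, 161 and 164 FPKM in glucose. SER33 rose by 0.65 ± 0.08 and 0.47 ± 0.09 (limma adjusted p = 4.8e-06 and 0.00034). The wild-type call did not hold under median scaling (0.15) or quantile normalization (0.05). SER3 changed by -0.32 in deletion cells and by less than 0.01 in wild-type cells, where it passed as lower under median scaling (-0.32) and quantile normalization (-0.43). SER3 over SER33 shifted by -0.72 (exact permutation, adjusted p = 0.00167). SER3 lies within the reach of SRG1, a non-coding transcript across its promoter, whose reads the table cannot separate where the annotations overlap.

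ASN1 and ASN2, the asparagine synthetases, both fell, ASN1 further. ASN1 had 216, 265, 208 and 222 FPKM in deletion ethanol libraries, against 483, 424, 419 and 403 FPKM in deletion glucose libraries, and in wild type 169.9, 195 and 226 FPKM in ethanol, against 395, 409.8 and 465 FPKM in glucose. ASN2 had 351, 385, 345 and 398 FPKM in deletion ethanol libraries, against 494, 475, 456 and 459 FPKM in deletion glucose libraries, and in wild type 363, 314 and 339.9 FPKM in ethanol, against 508, 509 and 562 FPKM in glucose. The ratio shifted by -0.52 (exact permutation, adjusted p = 0.00167), and 19 windows of 65 bases were common to both genes.

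ARO3 and ARO4, which open the aromatic pathway and are known to be inhibited by phenylalanine and tyrosine, also both fell. ARO3 had 268, 306, 258 and 292 FPKM in deletion ethanol libraries, against 479, 375, 395 and 398 FPKM in deletion glucose libraries, and in wild type 271, 253 and 288 FPKM in ethanol, against 349, 407 and 441 FPKM in glucose. ARO4 had 292, 362, 304 and 369 FPKM in deletion ethanol libraries, against 569.6, 563, 499 and 544 FPKM in deletion glucose libraries, and in wild type 317, 249.7 and 334 FPKM in ethanol, against 572, 591 and 626 FPKM in glucose. The ratio shifted by 0.31 (exact permutation, adjusted p = 0.00286), the smallest of the 7 shifts, and the deletion ranges of the 2 media overlapped.

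**Figure D3:**
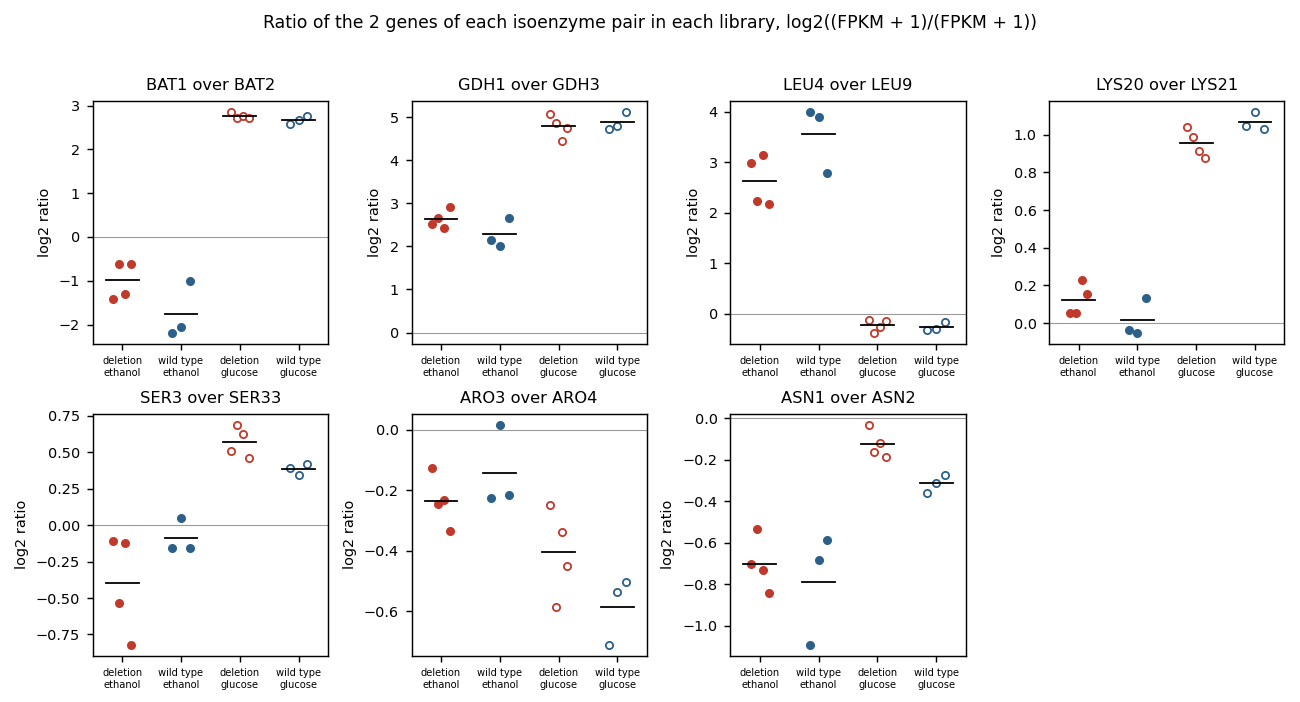
Log2 ratio of the FPKM + 1 of the 2 genes of each pair in each library (points) with group means (lines), for deletion ethanol, wild-type ethanol, deletion glucose and wild-type glucose cells. BAT1 over BAT2 lies between -2.18 and -0.61 in ethanol and between 2.59 and 2.85 in glucose, and LEU4 over LEU9 moves the other way.

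Genes around these pathways were read from the same fits. Of 16 measured further synthesis genes, 8 rose and 8 fell in deletion cells, and 5 rose and 8 fell in wild-type cells, with LEU2 at 0. ALT1, an alanine aminotransferase, changed by 1.44 in deletion and 2.00 in wild-type cells, TRP1, which acts between TRP4 and TRP3, by 0.91 and 1.07, and AAT1, the mitochondrial aspartate aminotransferase, by -1.20 and -1.09. Of 17 regulators, 3 rose and 6 fell in deletion cells and 6 rose and 6 fell in wild-type cells. Of all genes, limma called 46.9% higher and 27.7% lower in deletion cells, and 50.5% and 24.8% in wild-type cells. GCN2 did not pass in either (-0.09 and 0.04). Its partners GCN1 (-0.84 and -0.90) and GCN20 (-0.62 and -0.76) fell, as did BAS1, a regulator of histidine and purine genes (-1.06 and -1.34). Other regulators had higher means in ethanol. ARG82 averaged 62.5 FPKM in ethanol and 35.9 FPKM in glucose in deletion cells, and 70.3 and 31.5 FPKM in wild type. GAT1 averaged 34.7 FPKM in ethanol and 19.7 FPKM in glucose in deletion cells, and 32.6 and 18.8 FPKM in wild type. The medians over these lists were -0.01 and -0.07 for synthesis genes and -0.03 and 0.04 for regulators, against 0.19 and 0.31 over all genes.

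The deletion was then compared with wild type in glucose. None of the 54 genes passed, where limma called 0.0319% of all genes, and 4 of the 54 (7.41%) had an unadjusted p under 0.05, where 11.5% of all genes did. The lowest adjusted p among them was 0.37. Differences ran from -0.16 to 0.27 with a median of 0.01, against a median of 0.08 over all genes. GLT1 had 133, 141, 136 and 133 FPKM in deletion libraries and 123, 106 and 109.9 FPKM in wild-type libraries, a difference of 0.27 ± 0.09 with no overlap. SER3, at 251 ± 16.1 FPKM in deletion (SD, n = 4) and 214 ± 8.34 FPKM in wild-type cells (SD, n = 3), differed by 0.23 ± 0.08, HOM3 by 0.22 ± 0.13, ARO1 by 0.12 ± 0.06 and ASN2 by -0.16 ± 0.07. Groups did not overlap for 6 of the 54 genes (11.1%), where this held for 17.7% of all genes. GCN4 averaged 1976 ± 174 FPKM in deletion and 2118 ± 109.9 FPKM in wild-type cells, a difference of -0.10 ± 0.09 that did not pass (limma adjusted p = 0.66).

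In ethanol none of the 54 genes passed either, where limma called 0.0319% of all genes, and 15 (27.8%) had an unadjusted p under 0.05, where 24.1% of all genes did. Estimates were above 0 for 37 of the 54 genes and for 42.5% of all genes, with medians of 0.07 and -0.04. LYS4 averaged 51.8 ± 2.98 FPKM in deletion (SD, n = 4) and 40.0 ± 4.02 FPKM in wild-type cells (SD, n = 3), a difference of 0.37 ± 0.08 with no overlap (limma adjusted p = 0.11). The other genes of lowest p were SER2 at 0.40 ± 0.12, ILV5 at 0.32 ± 0.10, LEU9 at 0.65 ± 0.21 and BAT2 at -0.47 ± 0.16, each with overlapping groups (limma adjusted p = 0.11 to 0.12). Groups did not overlap for LYS4 and PRO1 alone among the 54 (3.7%), where this held for 7.36% of all genes.

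**Figure D4:**
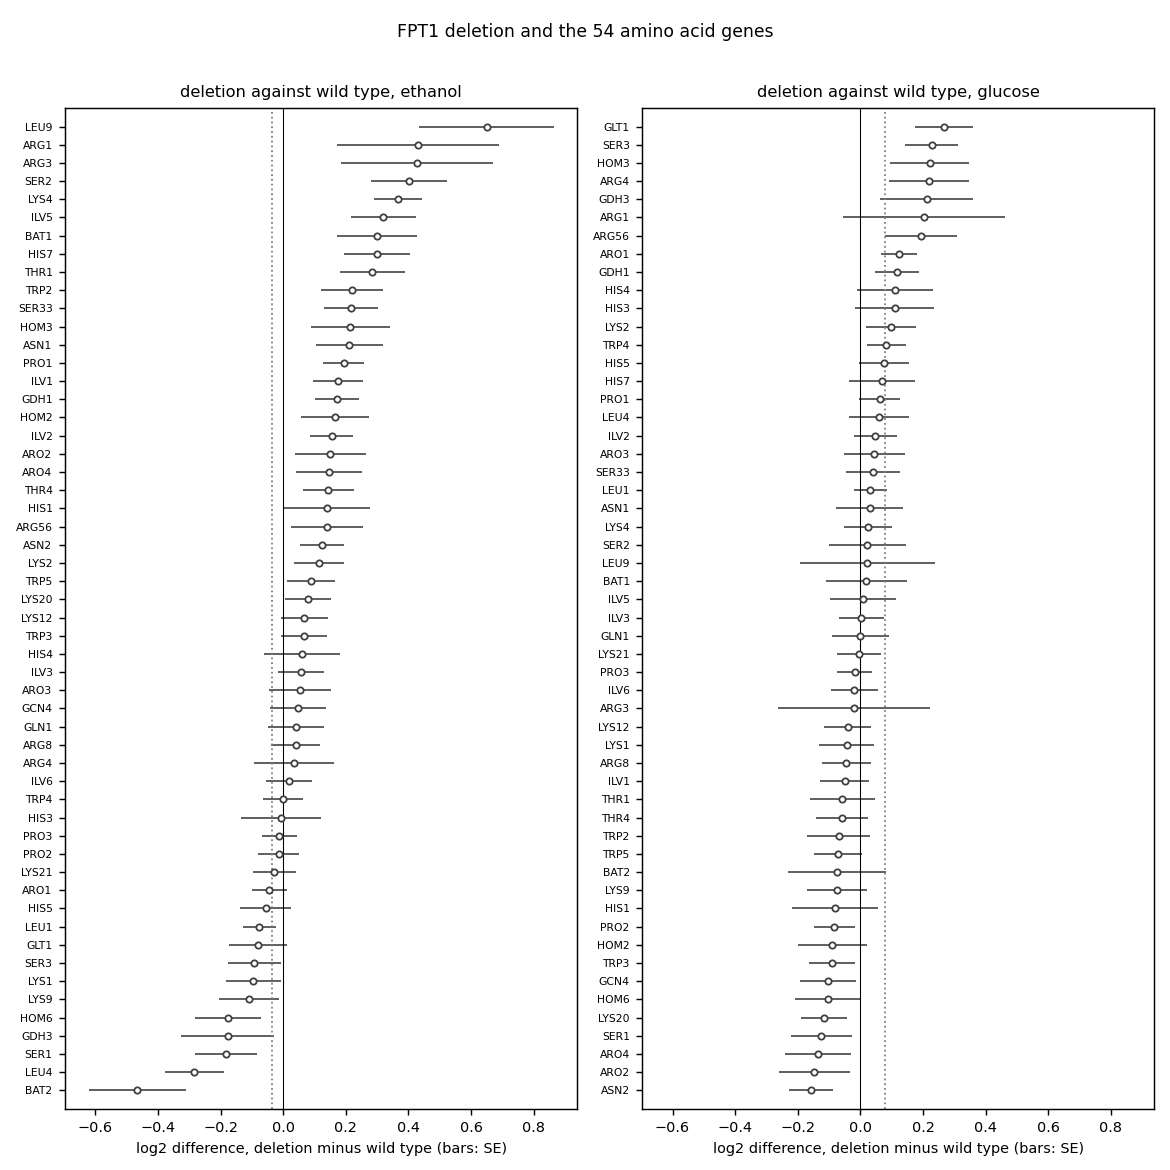
Log2 difference between deletion and wild-type cells with SE bars for each of the 54 genes, in ethanol (left) and in glucose (right), sorted by size; open circles did not pass and the dotted line marks the median of all genes (-0.04 and 0.08). LEU9 at 0.65 and BAT2 at -0.47 end the ethanol column, and no glucose estimate exceeds 0.27.

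The ethanol result turned on single libraries. Without wild-type ethanol replicate 3, 10 members were called (18.5%), close to the 15.4% of all genes (964) called then. LYS4, LEU9, ILV5, SER2, PRO1 and GDH1 were higher in deletion cells (11.1%, against 8.66% of all genes) and BAT2, LEU4, SER1 and HOM6 lower (7.41%, against 6.72%). LEU9 then differed by 0.90 (limma adjusted p = 0.015) and BAT2 by -0.72 (limma adjusted p = 0.0039). Without deletion ethanol replicate 1, 9 members were called (16.7%), where 14.6% of all genes (912) were. Each of the 9 was higher (HIS7, LYS4, THR1, SER2, ILV5, LEU9, BAT1, ILV1 and ILV2), where 7.79% of all genes were called higher and 6.77% lower. LYS4, LEU9, ILV5 and SER2 were in both sets. The runs share most of their libraries and these genes already had the lowest p with all libraries, so their recurrence is not separate support. Leaving out any other single ethanol library called no member. Without replicate 4, which carries the other strain name, in either medium no member was called in glucose or in ethanol.

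A growth-linked measure moved with these values. The mean log2(FPKM + 1) of 15 ribosome biogenesis genes was 6.59, 7.21, 6.84 and 7.27 in deletion ethanol replicates 1 to 4, and 6.20, 6.13 and 6.76 in wild-type ethanol replicates 1 to 3, against 8.46 to 8.58 in the glucose libraries of both genotypes. All 15 fell in ethanol in both genotypes, with medians of -1.41 in deletion and -2.02 in wild-type cells. Deletion replicates 2 and 4, with the highest scores, had the highest LEU9 and SER2 and the lowest BAT2 of the 7 ethanol libraries. Wild-type replicate 3, whose score lay within the deletion range, had 39.8 FPKM of LEU9 and 483 FPKM of BAT2. The part of this measure in the differences between genotypes was not tested.

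**Figure D5:**
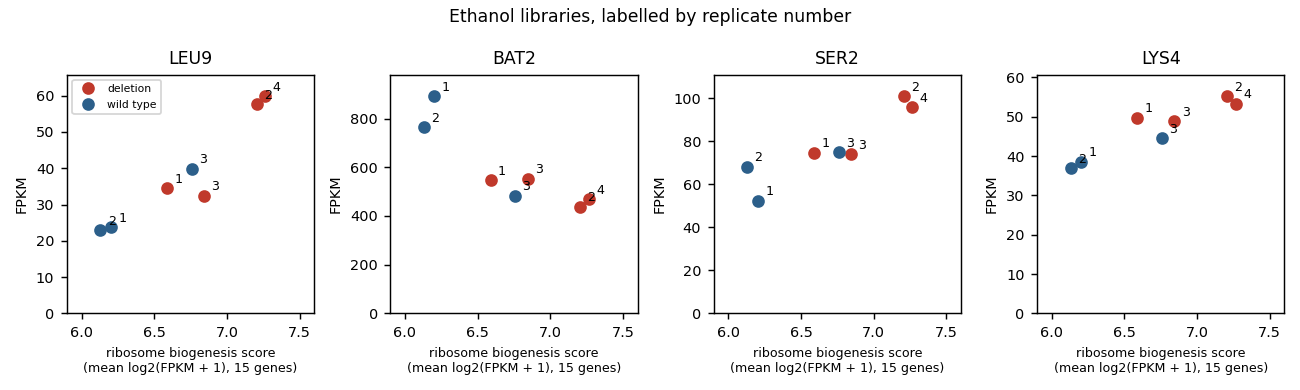
FPKM of LEU9, BAT2, SER2 and LYS4 (vertical axes) against the mean log2(FPKM + 1) of 15 ribosome biogenesis genes in the 4 deletion (red) and 3 wild-type (blue) ethanol libraries, numbered by replicate. Wild-type replicate 3 lies among the deletion libraries on the horizontal axis and, for LEU9, BAT2 and SER2, within their range on the vertical one; for LYS4 it lies below them.

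The test of the difference between the 2 ethanol responses, deletion minus wild type, called none of the 54 genes and 0% of all genes. An unadjusted p under 0.05 was found for 7 of the 54 (13%), where it was found for 25.6% of all genes. The genes of lowest p were LYS4 at 0.34 ± 0.11, ASN2 at 0.28 ± 0.10, SER3 at -0.32 ± 0.12, GLT1 at -0.35 ± 0.13 and LEU4 at -0.34 ± 0.13 (limma adjusted p = 0.13 to 0.16). Without wild-type ethanol replicate 3, LYS4 (0.42), BAT2 (-0.65) and LEU4 (-0.48) passed, with 654 genes in all (10.4%), and without deletion ethanol replicate 1, THR1 (0.44) passed, with 844 genes in all (13.5%). Both member counts are below the share of all genes. The comparisons share libraries, so the values for 1 gene in the deletion and in the response columns are not independent.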

How the data were processed

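The authors deposited 1 table of FPKM values with a column per sample. Per the labels' protocols, poly(A) RNA was made into stranded libraries and read as 65-base single reads, and STAR 2.7.1a and the sacCer3 build are named per the submitters' processing notes. How FPKM was computed, with which annotation, strand setting and filters, is not stated in the sources at hand. The 6267 genes reaching 1 FPKM in 3 or more samples were tested on log2(FPKM + 1), which understates changes of low genes, with limma 3.58.1 in R 4.3.3: 1 mean per group over all 14 samples, empirical Bayes with trend, 5 two-sided comparisons and Benjamini-Hochberg adjustment over all genes tested, at 0.05. Errors of log2 values are SEs and of FPKM values SDs. The fit was tested on simulated data.

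Gene names and positions came from RefSeq R64 by systematic name (5989 genes, all 54 members). The table gives no coordinates. The strain names differ by replicate as the labels give them. The members, lists and tests were chosen with earlier results of these data known. Genes named with values per library are GCN4, the isoenzyme genes and the largest ethanol changes in wild type, and with group values or differences those of lowest p in the other comparisons. ARG1 was added after its values were seen. Promoter windows were cut from the R64 genome. Alternatives were other pseudocounts, filters and scalings, FPKM rescaled to TPM, only the groups compared, a replicate block, robust estimation and leaving out libraries.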

Additional observations from a re-analysis of the deposited data

Results flagged for a closer look

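In groups of 4 libraries a single value was marked where its gap to the nearest other exceeded Dixon's critical share of the group's range. This occurred in 5 of 108 groups checked, where chance gives 5.4. In deletion glucose cells replicate 1 was the high library for LYS2 at 81.9 FPKM (others 70.3 to 70.7), LYS1 at 95.7 FPKM (others 73.3 to 75.1) and HIS4 at 318 FPKM (others 249 to 254). THR1 was low in deletion glucose replicate 3, at 275 FPKM (others 288 to 289), and HOM6 was low in deletion ethanol replicate 2, at 785 FPKM (others 879.7 to 885).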

How the results depend on the processing

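Every call of a fall was kept, and the calls lost were all rises. Each rescaling also lowered the median change over all genes. In wild type it went from 0.31 to -0.014 under median scaling, -0.062 under quantile normalization and 0.16 under TPM. In deletion cells it went from 0.19 to -0.028, -0.070 and 0.025. Rescaling thus worked against rises, so these runs cannot decide whether rises are less stable in themselves. Of the ethanol calls, 42 of 47 in deletion cells (exceptions GCN4, LYS12, LEU4, GDH1 and HOM6) and 41 of 45 in wild-type cells (exceptions GDH1, HOM6, SER33 and SER1) kept direction and call in every alternative run, as did the 7 isoenzyme shifts. Members called lower stayed between 36 and 40 in deletion and 35 and 41 in wild-type cells. Members called higher were 6 in wild type under median scaling and quantile normalization and 6 in deletion cells under quantile normalization. FPKM gives no counts, so depth is an estimate, and changes are relative to the library total.

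Rescaling also added lower calls: LYS21 in both genotypes under median scaling, quantile normalization and TPM; HIS5 in both under median scaling and quantile normalization and in deletion cells under TPM; PRO1 in deletion cells and ARO1 in wild type under all 3; SER3 in wild type under median scaling and quantile normalization; and ARG4 in deletion cells (-0.39), ARG3 in wild type (-0.70) and LYS12 in wild type (-0.33) under quantile normalization. Leaving out deletion ethanol replicate 2 added HIS5 (-0.21) and PRO1 (-0.17) in deletion cells. A higher call was added for SER1 in deletion cells with only the groups compared (0.19) and without deletion glucose replicate 1 (0.24).

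Some estimates changed sign, and not all of them lay near 0. In deletion cells these were, under median scaling, ARG56 (-0.16), LYS12 (-0.0020) and SER1 (-0.021); under quantile normalization, ARG3 (-0.014), ARG56 (-0.15), LYS12 (-0.15), LEU4 (-0.020) and SER1 (-0.19); and under TPM, ARG56 (-0.11). In wild type they were, under median scaling, GCN4 (-0.14), ARG4 (-0.20), ARG56 (-0.22), LYS12 (-0.22) and SER1 (-0.070); under quantile normalization, ARG4 (-0.29), ARG56 (-0.21), GDH1 (-0.049), LYS12 (-0.33) and SER1 (-0.23); and under TPM, ARG4 (-0.026), ARG56 (-0.039) and LYS12 (-0.044). Without deletion ethanol replicates 2 and 4 they were ARG3 (-0.0039) and ARG56 (-0.048). On leaving out 1 library in turn, the estimate in deletion cells ran between -0.15 and 0.032 for ARG4 and between -0.022 and 0.10 for ARG56, and in wild type between -0.033 and 0.021 for SER3, -0.11 and 0.018 for HIS5, -0.082 and 0.024 for LYS21, and -0.00071 and 0.22 for ARG56. Of the genes named, LEU4 (0.34) and LYS12 (0.21) were called higher in deletion cells without rescaling. In wild type this held for GDH1 (0.48) and SER1 (0.25). The sign changes under rescaling went with the lower median change over all genes given above. Median scaling moved that median from 0.31 to -0.014 in wild type, and GCN4 from 0.18 to -0.14. The cause of the sign changes on leaving out libraries was not tested.

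Genes called for the deletion numbered 2 in each medium. In glucose there was 1 under pseudocount 5, no filter, median scaling, the replicate block and without deletion replicate 4 in both media, 5 with the filter at 10 FPKM, 8 with only the groups compared, and 1 to 2 on leaving out 1 library. In ethanol there were 4 under pseudocount 5, 5 under TPM, 1 under no filter, median scaling, quantile normalization, only the groups compared, the replicate block, without deletion replicate 4 in both media and without deletion ethanol replicates 2 and 4, and 1 to 964 on leaving out 1 library. The difference of responses, with 0, had 1 under pseudocount 5, no filter and without deletion replicate 4 in both media, 2 under TPM and 0 to 844 on leaving out 1 library. Members called higher for the deletion in ethanol ran between 0 and 9 on leaving out 1 library, and members called lower between 0 and 4; for the difference these ranges were 0 to 1 and 0 to 2. Same-numbered samples correlated between -0.42 and 0.32, and not every sample correlated best with its own number, so the numbers are not taken to pair samples. Between genotypes in ethanol, deletion replicates 1 and 2 did correlate best with their own number (0.32 and 0.21, against at most -0.022 and -0.016). Deletion replicate 3 did not (-0.091, against 0.11). Whether equal numbers mark a shared batch in ethanol was not tested. With the replicate block the wild-type SER1 call (0.25) had a limma adjusted p of 0.079 and the members' ethanol counts stayed within 1.5 times.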

Other observations

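Amino acid breakdown genes moved opposite to most synthesis genes. All 10 of the list rose in ethanol in both genotypes, with a median log2 change of 1.80 in deletion cells and 2.31 in wild-type cells, where limma called 46.9% and 50.5% of all genes higher. GDH2, the NAD-dependent glutamate dehydrogenase that releases ammonium from glutamate, averaged 523 ± 85.8 FPKM in ethanol and 77.2 ± 3.54 FPKM in glucose in deletion cells (SD, n = 4 each), and 630.4 ± 35.3 FPKM in ethanol and 67.6 ± 4.05 FPKM in glucose in wild type (SD, n = 3 each). ARO10, a decarboxylase of the Ehrlich pathway, changed by 3.32 and 3.75, CAR2, the ornithine aminotransferase of arginine use, by 2.22 and 2.65, and ARO9, an aromatic aminotransferase, by 2.13 and 2.37. PUT1 and PUT2, which oxidise proline, changed by 1.33 and 1.72 and by 1.00 and 1.23, and CHA1, the serine and threonine deaminase, by 0.90 and 0.94. None of the 10 passed for the deletion against wild type in ethanol (median -0.26) or in glucose (median 0.13).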
